A study of Rattus norvegicus with 15 samples.

Results

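The genes described here are those that the deposited table assigns to the KEGG pathway Cell cycle, without 8 genes excluded by name (Cdkn1a, Mdm2, Gadd45a, Gadd45g, Tgfb1, Tgfb2, Tgfb3 and Myc). Of 123 genes with the pathway annotation, 115 remained. All 115 reached the required 50 counts summed over the libraries, and all 115 also passed the filter on low counts that the test needs. They stand among 21969 genes in the table and 15860 genes tested. Poly(A) RNA was sequenced from rat tracheal epithelial cells that had been grown for weeks at an air-liquid interface, in which ciliated and secretory cells arise from basal cells. The 5 libraries of CSE with naringenin came from cells given 100 µM naringenin from 4 h before 10% CSE, the 5 CSE libraries from cells given 10% CSE alone, and the 5 control libraries from cells with no treatment. Both treated groups were exposed for 24 h. The abbreviation CSE is not expanded in the labels, and nothing in them ties a library to a strain, an animal or a culture dish. Naringenin is a citrus flavanone, and no group received it without CSE.

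A dividing cell copies its DNA in S phase and separates the copies in mitosis. Cyclins bind and switch on the cyclin-dependent kinases (CDKs) that drive each step, and CDK inhibitors hold them back. Origin recognition and minichromosome maintenance (MCM) proteins license DNA for copying, cohesin holds the sister copies together, and the anaphase-promoting complex (APC/C) marks securin and cyclin B for destruction once the spindle checkpoint is satisfied. In differentiated airway epithelium few cells divide, most of them basal cells, while multiciliated cells reuse parts of the same machinery when they make centrioles.

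Each library held 55.1 to 60.6 M counts, where 1 M is 1e6, and a count of 3 equals 0.048 to 0.0557 CPM (counts per 1e6, TMM-scaled). The members took 0.853 ± 0.0335% of the counts in CSE with naringenin, 0.877 ± 0.0284% in CSE and 0.856 ± 0.0269% in control libraries (SD, n = 5 each). The epithelial markers Epcam, Cdh1, Krt8 and Krt18 were present in every library, at group means of 138 to 720 FPKM (the authors' fragments per kilobase and 1e6 fragments). On genes outside the pathway the libraries fell into 3 sets that cut across the groups. Set 1 held replicates 3 and 4 of CSE with naringenin, 1 and 3 of CSE and 1 and 2 of control. Set 2 held replicates 1 and 2 of CSE with naringenin, 2 and 4 of CSE and 3 and 4 of control, and set 3 held replicate 5 of each group. The labels name no batch, so what the sets are was not tested, and values within sets are given below where they bear on a result.

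Levels of the members spanned a wide range. Skp1, the adaptor of the SCF ubiquitin ligase, was the highest at a mean of 835 FPKM over the 15 libraries, ahead of the 14-3-3 protein gene Ywhae at 385 FPKM. In all, 6 members averaged at least 100 FPKM and 20 averaged under 1 FPKM. Genes of mitosis were among the low ones, with Cdk1 at 1.82 FPKM, Ccnb1 at 1.03 FPKM, Cdc20 at 0.981 FPKM, Plk1 at 0.757 FPKM and Bub1 at 0.441 FPKM. The meiotic cohesin subunit gene Smc1b had the lowest level, 0.0311 FPKM, with 0 counts in several libraries, where up to 3 counts cannot be told from none.

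Comparing CSE with control, 10 members rose and 13 fell at an adjusted p under 0.05 (edgeR's quasi-likelihood test, Benjamini-Hochberg over all 15860 genes). Over all genes tested 21.2% were called, 10.8% higher and 10.4% lower, and the members' share was 20.0%, near that background. Counts within the lists below stand against the same shares of all genes. The median log2 fold change was 0.0045 for the members and -0.0026 for all genes tested. Among the called members the 2 directions differed in size and level. These are linked through the threshold, because a gene with a wide spread passes only with a large change. The 10 that rose did so by 0.21 to 0.52 on the log2 scale and none reached 2-fold, at mean levels of 3.0 to 85.1 FPKM (median 12.3 FPKM). The 13 that fell had log2 fold changes of -0.39 to -2.67, with a median of -1.54, and 9 of them were at least 2-fold lower. Of those 13, 8 averaged under 3 FPKM. In 8 members all CSE libraries lay above all control libraries, and in 6 all lay below. Over all genes tested, 8.32% lay fully above and 6.33% fully below. The model holds group alone. With library set added as a block, which absorbs the differences between the sets, 22 members were called higher and 23 lower. In that fit 39.9% of all genes were called. The sets were found from these same libraries, so the block lowers the residual spread partly by construction. Adjusted p-values with the set block may therefore be too small and are given as a description. In CSE against control, where a member described here was called with this set block and not with group alone, this stands beside it.

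**Figure D1:**
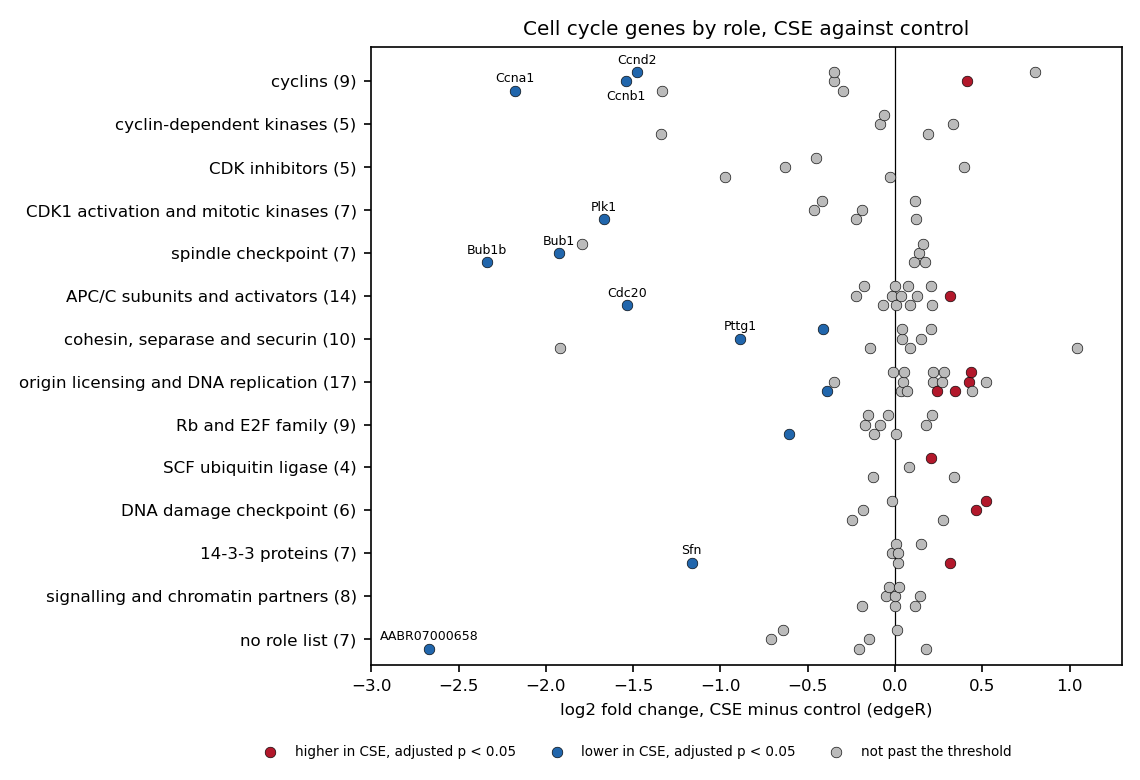
Log2 fold change of the 115 members in CSE minus control (x axis, edgeR), 1 point per gene, in rows by role with the number of genes in brackets; colours mark the 10 genes higher and 13 genes lower at an adjusted p under 0.05. The 9 called genes at least 2-fold lower are 3 cyclins, Plk1, Bub1, Bub1b, Cdc20, Sfn and the row AABR07000658, which is in no role list and is the lowest point at -2.67, while the 10 called increases go up to 0.52 and 6 of them lie among replication and DNA damage checkpoint genes.

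**Figure D2:**
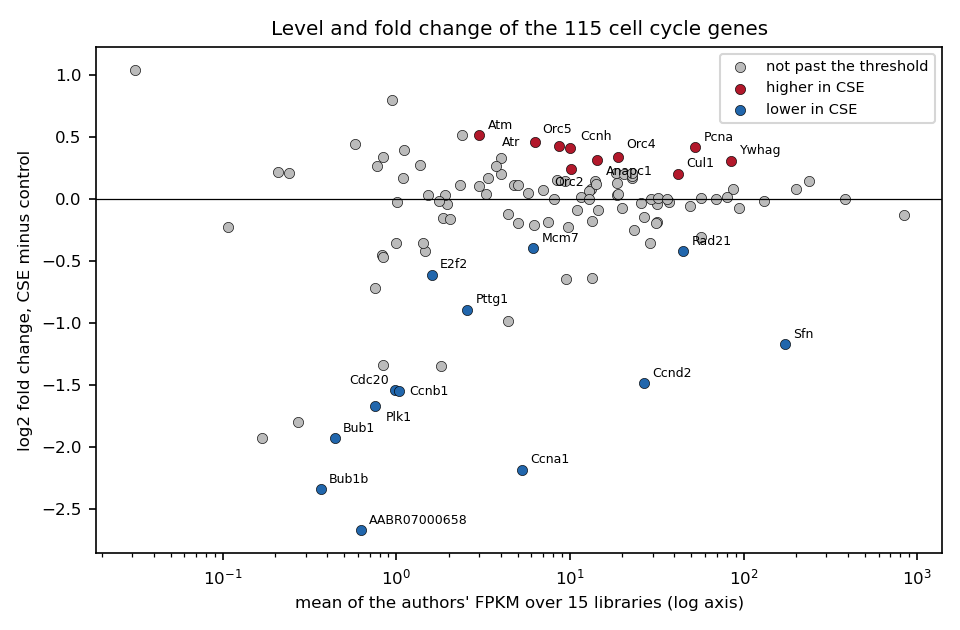
Mean FPKM over the 15 libraries (x axis, log scale) against log2 fold change in CSE minus control (y axis), 1 point per member, with the 23 called genes named. The 10 genes that rose sit between 3.0 and 85.1 FPKM with small changes, and 8 of the 13 that fell sit under 3 FPKM.

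Of the 9 cyclin genes, 3 fell (Ccna1, Ccnb1 and Ccnd2), 1 rose (Ccnh) and 5 did not pass, with a median log2 fold change of -0.35. DESeq2 called 5 lower and 2 higher, limma-voom 3 and 1, and the set block 5 and 1. Ccna1 (ENSRNOG00000014052) encodes cyclin A1, which in mice is needed for male meiosis. It had 13.2, 7.87, 9.2, 11.5 and 7.65 CPM in CSE with naringenin, 3.95, 4.86, 4.06, 4.0 and 4.07 CPM in CSE, and 27.1, 24.6, 16.3, 18.3 and 8.61 CPM in control libraries. CSE libraries were the lowest, without overlap with either other group, and control replicate 5 stood well below the other controls. The log2 fold change in CSE minus control was -2.18 ± 0.25 (SE, adjusted p = 5.04e-05), and within sets 1, 2 and 3 it was -2.69, -1.96 and -1.08.

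Ccnd2, which encodes cyclin D2, a partner of Cdk4 and Cdk6 in G1, had 27.4, 30.6, 15.8, 32.8 and 14.7 CPM in CSE and 38.9, 43.8, 94.8, 73.1 and 87.5 CPM in control libraries. The groups did not overlap, and the log2 fold change was -1.48 ± 0.35 (adjusted p = 0.00893). Ccnb1 encodes cyclin B1, the partner of Cdk1 at entry into mitosis. Its CSE libraries had 1.57, 1.14, 1.57, 0.574 and 0.873 CPM, against 3.35, 5.54, 1.08, 2.52 and 4.17 CPM in control libraries. Control replicate 3 lay inside the CSE range. The fold change was -1.54 ± 0.44 on the log2 scale (adjusted p = 0.0211), and the call was lost without control replicate 2 or without CSE replicate 5, with an adjusted p of up to 0.0568. Ccnh, the cyclin of the CDK-activating kinase, averaged 17.6 ± 3.25 CPM in CSE and 13.2 ± 1.36 CPM in control libraries (SD, n = 5 each). It rose by 0.41 ± 0.12 on the log2 scale (adjusted p = 0.0266), and this call was lost without CSE replicate 5, control replicate 1 or control replicate 4 (up to 0.0668).

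The other cyclins gave wider or smaller differences. Ccna2, the S phase and mitotic cyclin A2, averaged 1.44 ± 1.1 CPM in CSE and 3.63 ± 1.82 CPM in control libraries, with a log2 fold change of -1.33 ± 0.52 (adjusted p = 0.081, and 0.00312 with the set block). Ccnd3, the cyclin D3 gene, averaged 55.9 ± 6.37 CPM in CSE and 71.2 ± 13.5 CPM in control libraries (log2 fold change -0.35 ± 0.13, adjusted p = 0.0729, and 2.20e-04 with the set block). Ccne2, the second cyclin E gene, had a log2 fold change of -0.35 ± 0.19 (adjusted p = 0.215). The G1/S cyclin gene Ccne1 lay on the other side, at 2.49 ± 0.775 CPM in CSE and 1.43 ± 0.629 CPM in control libraries, with a log2 fold change of 0.80 ± 0.30 (adjusted p = 0.0719). Ccnd1, the most abundant cyclin at 56.7 FPKM, averaged 230 ± 50.5 CPM in CSE and 283 ± 88.9 CPM in control libraries, a difference within the spread (adjusted p = 0.368).

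None of the 5 CDK genes passed in CSE against control by edgeR, DESeq2 or limma-voom; 1 had an unadjusted p under 0.05 in edgeR, and it was Cdk1. Cdk1, the kinase of mitosis, had 2.64, 0.965, 1.98, 1.33 and 2.04 CPM in CSE, against 2.75, 6.92, 0.871, 1.95 and 10.2 CPM in control libraries. The groups overlapped. The highest control was 11.8 times the lowest, and the coefficient of variation among controls, 86.3%, was the largest of any member detected in every control library. Its log2 fold change of -1.34 ± 0.59 had an adjusted p of 0.119. The G1 kinases Cdk4 and Cdk6 had log2 fold changes of -0.07 ± 0.06 and -0.09 ± 0.22, and Cdk2, the S phase kinase, one of 0.33 ± 0.16 (adjusted p = 0.515, 0.816 and 0.158).

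None of the 5 CDK inhibitor genes passed either, and none had an unadjusted p under 0.05 in edgeR. DESeq2 and limma-voom also called none. With the set block, Cdk2 and Cdk7 were called higher (adjusted p = 0.0318 and 0.0239) and Cdkn2a lower (0.00928). Cdkn1b, which encodes p27, averaged 50.5 ± 11.1 CPM in CSE and 51.6 ± 12.1 CPM in control libraries, a log2 fold change of -0.03 ± 0.19. Cdkn2a, whose products p16 and p19Arf act on Cdk4/6 and on Mdm2, ranged from 1.83 to 4.81 CPM in CSE and from 3.14 to 10.4 CPM in control libraries, with overlap (log2 fold change -0.98 ± 0.47, adjusted p = 0.151).

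Among mitotic genes the decreases that passed were at least 2-fold in Plk1, Bub1, Bub1b and Cdc20. Of the 7 genes of CDK1 activation and mitotic kinases 1 fell, Plk1, which encodes polo-like kinase 1. Of the 7 spindle checkpoint genes 2 fell, Bub1 and Bub1b, and of the 14 APC/C genes 1 fell, the activator gene Cdc20. Plk1 had 1.97, 0.551, 1.02, 0.755 and 1.1 CPM in CSE, against 4.38, 5.18, 1.3, 2.05 and 4.25 CPM in control libraries. Only the highest CSE library overlapped the lowest control. The log2 fold change was -1.67 ± 0.44 (adjusted p = 0.0151), the call held with each of the 15 libraries left out in turn, and within the 3 sets it was -1.68, -1.36 and -1.95.

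Bub1, a kinase that recruits checkpoint proteins to kinetochores, had 1.66, 0.844, 0.899, 1.05 and 0.733 CPM in CSE, against 3.62, 6.31, 0.922, 1.44 and 7.5 CPM in control libraries. Both controls of set 2 lay inside the CSE range, and the 3 other controls were above it. Its log2 fold change was -1.93 ± 0.54 (adjusted p = 0.0198), and it was -1.95, -0.32 and -3.35 within sets 1, 2 and 3. Limma-voom did not call it (adjusted p = 0.103). Bub1b encodes BubR1, part of the mitotic checkpoint complex. Its CSE libraries had 1.41, 0.258, 0.733, 0.263 and 0.594 CPM, against 3.33, 5.13, 0.991, 1.62 and 5.47 CPM in control libraries, and the ranges overlapped through 1 CSE library. Its log2 fold change was -2.34 ± 0.67 (adjusted p = 0.0217, and 0.0504 without CSE replicate 4).

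Cdc20, which activates the APC/C once chromosomes are aligned, had 1.68, 1.19, 1.57, 1.56 and 1.24 CPM in CSE, against 3.83, 7.14, 1.52, 2.21 and 6.31 CPM in control libraries. Control replicate 3 lay inside the narrow CSE range. On the log2 scale the fold change was -1.54 ± 0.45 (adjusted p = 0.0256), with -1.76, -0.44 and -2.35 within the sets. This call was among the least steady: it was lost without control replicate 2 or 5 or CSE replicate 2 or 5 (up to 0.0691), and limma-voom gave 0.0786. The other checkpoint kinase gene, Ttk, had a log2 fold change of -1.79 ± 0.85 at 0.271 FPKM (adjusted p = 0.15, and 0.0083 with the set block). The remaining 4 checkpoint genes, Mad1l1, Mad2l1, Mad2l2 and Bub3, had log2 fold changes of 0.11 to 0.17 and did not pass. Among APC/C genes the scaffold subunit gene Anapc1 rose, and the 12 others had log2 fold changes of -0.22 to 0.21; with the set block Anapc4, Cdc27 and Cdc16 were also called higher (adjusted p = 0.00275, 0.00687 and 0.0496).

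**Figure D3:**
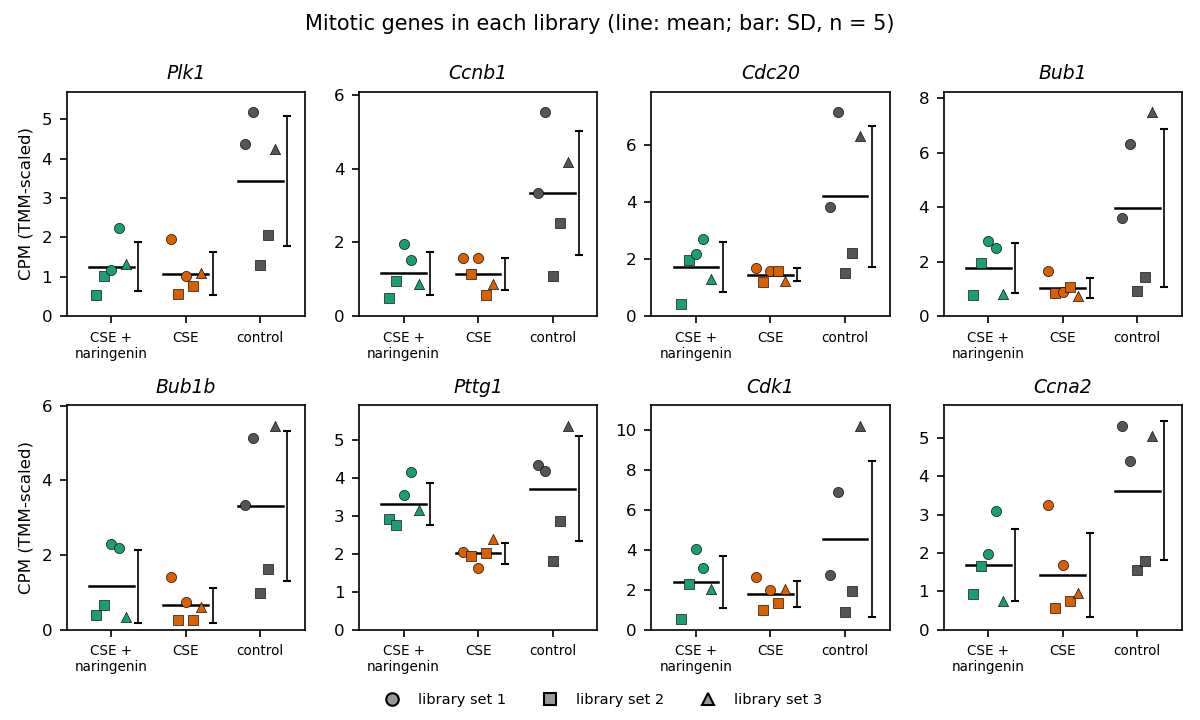
CPM (y axis, linear from 0) of 8 mitotic genes in each library of CSE with naringenin, CSE and control; lines are means, bars SD (n = 5), and symbols mark the 3 library sets. Control replicates of set 2 (squares) lie low and near the CSE libraries, while the other controls reach 10.2 CPM for Cdk1.

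Control levels of these genes also differed between the library sets. In 43 of the 115 members (37.4%) both set 2 controls lay below the 3 other controls, and 8 of the 13 members that fell were among them. The same held for 20.7% of all genes tested. Marker genes of several cell types also differed between CSE and control libraries, taken over all sets. Of 10 basal cell markers 3 fell with CSE (Krt14, Krt17 and Pdpn) and none rose, and their summed level was 1070 to 2087 CPM in CSE and 2072 to 2901 CPM in control libraries. The basal marker Krt5 ranged from 18.2 to 323 CPM in CSE and from 63.7 to 336 CPM in control libraries, and Ngfr was at 0 in 1 CSE and 1 control library. Of 9 fibroblast and smooth muscle markers tested 3 fell, and their sum, over 10 genes, was 24.3 to 133 CPM in CSE and 159 to 590 CPM in control libraries. Of 12 ciliated cell markers 6 fell and none rose (8 fell with DESeq2 and 11 with the set block), with sums of 1916 to 2718 CPM in CSE and 2062 to 3554 CPM in control libraries. Of 9 secretory cell markers 1 fell (3 with DESeq2 and 5 with the set block), where 10.4% of all genes tested fell. The secretory sums, which follow the most abundant genes, did not overlap, at 7358 to 8214 CPM in CSE and 11098 to 12730 CPM in control libraries. Mean log2 CPM centred on each gene's mean, which weights the 9 secretory genes equally, did overlap (-1.84 to 1.02 in CSE, -0.796 to 2.48 in control libraries). The same score also overlapped for the fibroblast and smooth muscle markers (-1.41 to 0.239 in CSE, 0.142 to 1.34 in control libraries). It overlapped as well for the basal markers (-0.8 to 0.52 in CSE, -0.158 to 0.959 in control libraries). For the ciliated markers the score was -0.54 to -0.0841 in CSE and -0.285 to 0.444 in control libraries, again with overlap. The 5 leukocyte markers summed to 2.91 to 8.73 CPM in CSE and 1.97 to 11.0 CPM in control libraries. The part of these cells in the mitotic differences was not tested. In bulk RNA, fewer cells of a type and less RNA per cell cannot be told apart.

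The promoters of the mitotic genes are shown because regulation of these genes is known to run through a CCAAT box, bound by NF-Y, and a cell cycle homology region (CHR), bound by the DREAM and B-Myb complexes. Sequences are those of RefSeq (GRCr8), the 110 bases before the annotated start, 5′ to 3′ on the gene's strand. Capitals mark CCAAT on either strand (CCAAT or ATTGG) and the CHR letters TTTGAA on either strand (TTTGAA or TTCAAA). Plk1 lies at chr1:186147548-186147657 (+), Ccnb1 at chr2:33655226-33655335 (-), Cdc20 at chr5:137255800-137255909 (-), Pttg1 at chr10:28406327-28406436 (-), Cdk1 at chr20:19265183-19265292 (+) and Ccna1 at chr2:141393301-141393410 (-). Ccna1 is set beside them as the cyclin gene that fell with the smallest adjusted p.
Plk1: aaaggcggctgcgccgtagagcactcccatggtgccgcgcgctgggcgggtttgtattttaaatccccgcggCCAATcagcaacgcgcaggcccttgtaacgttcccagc
Ccnb1: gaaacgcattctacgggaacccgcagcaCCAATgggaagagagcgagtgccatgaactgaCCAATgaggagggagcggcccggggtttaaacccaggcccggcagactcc
Cdc20: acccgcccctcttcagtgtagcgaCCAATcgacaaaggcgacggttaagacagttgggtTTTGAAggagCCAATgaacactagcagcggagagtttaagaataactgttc
Pttg1: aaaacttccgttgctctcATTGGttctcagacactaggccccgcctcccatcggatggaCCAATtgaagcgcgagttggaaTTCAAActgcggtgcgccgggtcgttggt
Cdk1: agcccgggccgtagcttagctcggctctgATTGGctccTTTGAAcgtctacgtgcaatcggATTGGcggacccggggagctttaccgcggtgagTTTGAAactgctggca
Ccna1: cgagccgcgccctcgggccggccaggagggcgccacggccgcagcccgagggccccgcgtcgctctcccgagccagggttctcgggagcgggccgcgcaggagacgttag

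The 5 mitotic stretches shown held at least 1 CCAAT each, and the Ccna1 stretch held neither motif. They were chosen for display: Cdk1 did not pass, and Bub1b, which fell and is not printed, had TTTGAA at position -4 and no CCAAT in its window. Over the longer window from 250 bases before to 50 after the start, Plk1 also had TTTGAA at position 7 after the start. A single promoter was matched by symbol for 84 of the 115 members. In that window CCAAT was found on either strand in 53.6% of the 84 and in 37.5% of all 33469 promoters of the table, and TTTGAA in 23.8% of the 84 and 18.3% of all. An E2F site (TTCCCGC or TTGGCGC, either strand) was found in 27.4% of the members and 6.26% of all promoters. The E2F form TTGGCGC and CCAAT can overlap on opposite strands, as they do in Mcm7. Of the 9 members that fell and had a promoter, 4 held TTTGAA (Plk1, Cdc20, Pttg1 and Bub1b), 6 held CCAAT and 1 an E2F site. Of the 9 that rose and had one, 0 held TTTGAA, 5 held CCAAT and 3 an E2F site. A match describes letters in this window and no binding was measured.

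Among the 10 genes of cohesin, separase and securin 2 fell, Rad21 and Pttg1. Rad21, the cohesin subunit that separase cleaves, had 176, 168, 165, 184 and 177 CPM in CSE with naringenin, 155, 160, 153, 150 and 162 CPM in CSE, and 206, 204, 206, 210 and 213 CPM in control libraries. The 3 groups did not overlap at all. In CSE minus control the log2 fold change was -0.42 ± 0.05 (adjusted p = 3.59e-05), the smallest adjusted p among the members, and within the sets it was -0.41, -0.43 and -0.40. The other subunits of the ring, Smc1a, Smc3, Stag1 and Stag2, had log2 fold changes of -0.14 to 0.20 and did not pass; the set block called Smc1a lower and Smc3 and Stag1 higher (adjusted p = 0.0201, 0.0269 and 0.0301).

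Pttg1 encodes securin, the inhibitor of separase. Its libraries had 2.93, 2.76, 3.54, 4.15 and 3.14 CPM in CSE with naringenin, 2.05, 1.95, 1.63, 2.02 and 2.39 CPM in CSE, and 4.34, 4.18, 1.81, 2.87 and 5.38 CPM in control libraries. Control replicate 3 was within the CSE range, and the other controls were above it. The fold change in CSE minus control was -0.89 ± 0.24 on the log2 scale (adjusted p = 0.0166). Espl1, which encodes separase, had a larger log2 fold change of -1.92 ± 0.73 that did not pass (adjusted p = 0.0753), at 0.635 ± 0.575 CPM in CSE and 2.42 ± 1.64 CPM in control libraries. With the set block it was called lower, at -2.09 ± 0.33 (adjusted p = 1.71e-04).

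Of the 9 Rb and E2F family genes 1 fell (11.1%, where 10.4% of all genes tested fell). E2f2, an activator of S phase genes, had 7.05, 6.57, 7.44, 6.7 and 6.62 CPM in CSE, against 12.5, 11.6, 8.56, 8.98 and 10.8 CPM in control libraries, with no overlap. E2f2 had a log2 fold change of -0.61 ± 0.11 (adjusted p = 0.00193). Rb1, the retinoblastoma protein that restrains E2F, averaged 43.9 ± 8.46 CPM in CSE and 49.5 ± 3.49 CPM in control libraries and did not pass (log2 fold change -0.17 ± 0.12, adjusted p = 0.343). With the set block Rb1 was called lower (adjusted p = 0.0269) and E2f4 and Tfdp1 higher (0.00601 and 0.00459). E2f1 and Chek1 are not the name of any row and are not analysed here under those symbols. The row that carries the description of checkpoint kinase 1 is named Stt3a and may hold the counts of more than 1 gene (log2 fold change 0.01 ± 0.13). The member row Necab3 also carries the pathway annotation of another gene. It did not pass, at 4.95 to 6.65 CPM in CSE and 3.28 to 6.53 CPM in control libraries.

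Origin licensing and DNA replication, the longest role list, had 4 increases and 1 decrease among 17 genes, with a median log2 fold change of 0.22. Over all genes tested 10.8% rose and 10.4% fell. The 4 members of the list that rose were Orc2, Orc4 and Orc5, subunits of the origin recognition complex, and Pcna, the sliding clamp of DNA polymerases. Orc5 had 24, 25.1, 26.5, 22.3 and 27.8 CPM in CSE, against 17.1, 17, 20.7, 22.1 and 16.3 CPM in control libraries. All CSE libraries were above all controls, by a narrow margin over control replicate 4. Orc5 rose by a log2 fold change of 0.43 ± 0.09 (adjusted p = 0.00511). Orc2, steady within groups, averaged 36.1 ± 0.85 CPM in CSE with naringenin, 36 ± 2.72 CPM in CSE and 30.5 ± 1.09 CPM in control libraries, and rose in CSE by 0.24 ± 0.06 (adjusted p = 0.00871). Orc4 rose by 0.35 ± 0.09 (adjusted p = 0.0108), while Orc1, Orc3 and Orc6 did not pass.

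Pcna had 81.1, 65.3, 73.5, 67.7 and 107 CPM in CSE, against 61.8, 67.4, 52.4, 46.9 and 65.8 CPM in control libraries. The groups overlapped, and CSE replicate 5 was the highest. The log2 fold change was 0.42 ± 0.13 (adjusted p = 0.0351), and the call was lost without CSE replicate 1 or 5 or control replicate 1, 3 or 4 (up to 0.0913). The helicase genes went no common way. Mcm7 fell by 0.39 on the log2 scale (SE 0.09, adjusted p = 0.00734), with 16.1, 15.4, 14.6, 15.1 and 14.7 CPM in CSE against 18.4, 20.7, 23.6, 19.8 and 17 CPM in control libraries. CSE libraries were all lower. Mcm2 averaged 21.4 ± 3.48 CPM in CSE and 20.7 ± 2.86 CPM in control libraries (log2 fold change 0.05 ± 0.13), and Mcm3, Mcm4, Mcm5 and Mcm6 did not pass, at log2 fold changes of -0.01 to 0.52; the set block called Mcm6 higher (0.52 ± 0.17, adjusted p = 0.0262).

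Of the 6 DNA damage checkpoint genes 2 rose, Atm and Atr, the kinases that respond to DNA double-strand breaks and to stalled replication. Atm had 39.8, 42.3, 41.2, 39.7 and 37.4 CPM in CSE with naringenin, 46.8, 47.2, 46.6, 51.5 and 55.3 CPM in CSE, and 31.3, 34.1, 40.9, 34.7 and 31.5 CPM in control libraries. CSE libraries were above all others. In CSE minus control the log2 fold change was 0.52 ± 0.08 (adjusted p = 3.72e-04), the largest increase that passed among the members. Atr averaged 63.4 ± 5.82 CPM in CSE with naringenin, 70.1 ± 5.02 CPM in CSE and 50.8 ± 6.14 CPM in control libraries, and rose in CSE by 0.47 ± 0.09 (adjusted p = 0.00217). Chek2, Abl1 and Prkdc did not pass, at log2 fold changes of -0.18 to 0.27, and the set block called Prkdc higher (adjusted p = 4.08e-04).

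The 14-3-3 proteins bind phosphorylated partners such as Cdc25. Of 7 genes 1 fell and 1 rose. The set block also called Ywhaz higher (adjusted p = 0.00956), at 670 to 722 CPM in CSE and 578 to 648 CPM in control libraries. Sfn, the epithelial 14-3-3 sigma and a high-level gene at 172 FPKM, had 117, 155, 81.2, 70.7 and 66 CPM in CSE with naringenin, 95, 133, 82.5, 133 and 76.7 CPM in CSE, and 159, 181, 289, 232 and 306 CPM in control libraries. All treated libraries were below all controls. In CSE minus control its log2 fold change was -1.17 ± 0.26 (adjusted p = 0.00543). The row LOC298795, described as similar to 14-3-3 sigma, may share reads with Sfn; it averaged 0.943 ± 0.299 CPM in CSE and 1.54 ± 0.283 CPM in control libraries (adjusted p = 0.0722, and 0.0239 with the set block). Ywhag rose by 0.31 ± 0.09 (adjusted p = 0.0178), at 373 ± 20.3 CPM in CSE and 300 ± 36.8 CPM in control libraries, a call lost without control replicate 1 or 2 (up to 0.0525).

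The other increases were small and came from genes of protein destruction. Anapc1 had 156, 163, 153, 157 and 157 CPM in CSE, against 119, 117, 140, 132 and 123 CPM in control libraries, without overlap, and rose by 0.32 ± 0.06 (adjusted p = 0.00128). Cul1, the scaffold of the SCF ligase, averaged 170 ± 4.69 CPM in CSE and 147 ± 7.38 CPM in control libraries and rose by 0.21 ± 0.06 (adjusted p = 0.0203, and 0.0585 without control replicate 4). No gene of the 8 signalling and chromatin partners, among them Smad2, Smad3, Smad4, Gsk3b, Hdac1 and Hdac2, passed by edgeR, DESeq2 or limma-voom, and 0 had an unadjusted p under 0.05 in any of them. The row AABR07000658 (ENSRNOG00000055111), described as cyclin B2-like, had 0.331 ± 0.137 CPM in CSE and 2.12 ± 1.53 CPM in control libraries and the largest decrease among the members (log2 fold change -2.67 ± 0.60, adjusted p = 0.00606). Limma-voom did not call it (adjusted p = 0.0605), and within the 3 sets it was -2.66, -1.01 and -4.97. It is a near copy of another gene, so its counts are uncertain.

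**Figure D4:**
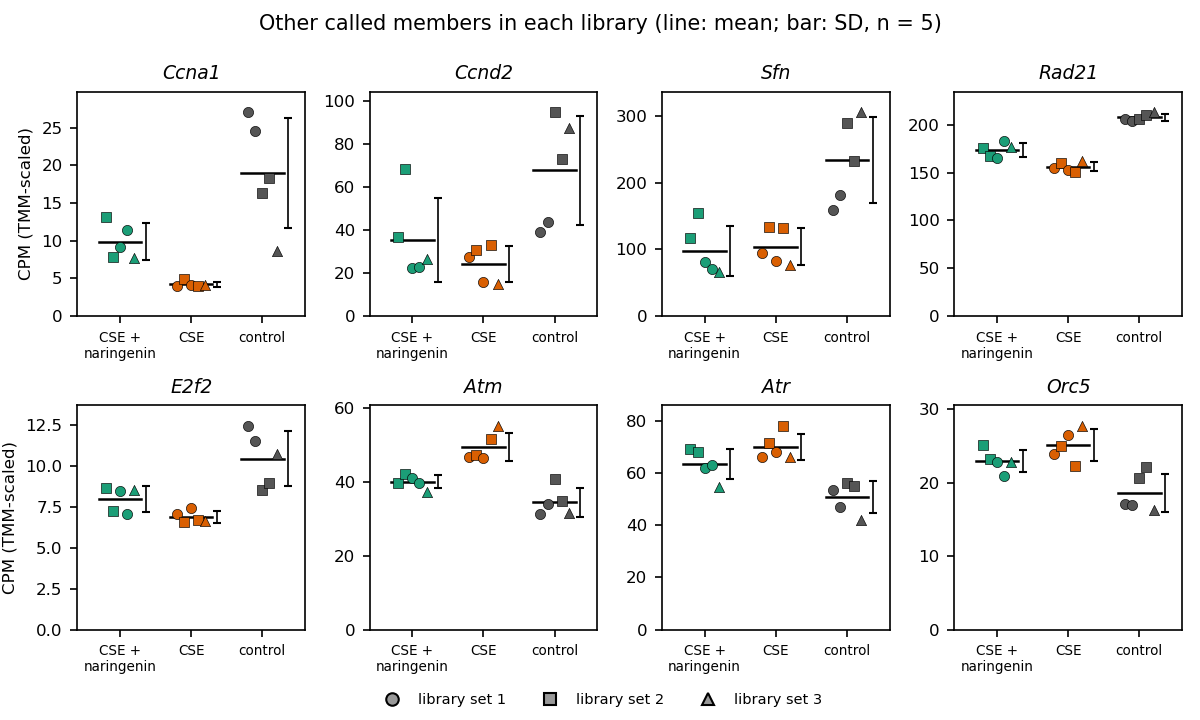
CPM (y axis, linear from 0) of 8 further called members in each library of CSE with naringenin, CSE and control; lines are means, bars SD (n = 5), and symbols mark the 3 library sets. For Ccna1, Rad21 and Atm the libraries of CSE with naringenin lie mostly between those of CSE and control, and for Sfn they lie with those of CSE.

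Against CSE alone, CSE with naringenin changed 1 member, and over all genes tested 0.908% were called (0.334% higher and 0.574% lower). The 1 gene among 115, a share near that background, was Ccna1, higher in CSE with naringenin by 1.24 ± 0.25 on the log2 scale (adjusted p = 0.0326). Every library with naringenin, at 7.65 to 13.2 CPM, was above every CSE library, at 3.95 to 4.86 CPM. No member was called lower by edgeR or limma-voom, 6 had an unadjusted p under 0.05 in that direction in edgeR, and DESeq2 called 3 lower and 2 higher. The Ccna1 call was lost in 8 of 15 fits that left out 1 library (any CSE library, or replicate 1, 3 or 4 of CSE with naringenin, up to 0.0953) and with limma-voom (0.104). Its log2 fold change within the 3 sets was 1.37, 1.25 and 0.91.

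In 3 members all libraries of CSE with naringenin lay above all CSE libraries (Ccna1, Pttg1 and Rad21) and in 3 below (Atm, Ywhah and Ywhaz), and over all genes tested 1.97% lay fully above and 2.80% fully below. Except for Ccna1 these did not pass. Pttg1 was at 2.76 to 4.15 CPM in CSE with naringenin and 1.63 to 2.39 CPM in CSE (log2 fold change 0.72 ± 0.24, adjusted p = 0.185), and Rad21 at 165 to 184 CPM and 150 to 162 CPM in the same order of groups (0.16 ± 0.05, adjusted p = 0.131). Atm was at 37.4 to 42.3 CPM in CSE with naringenin and 46.6 to 55.3 CPM in CSE (-0.30 ± 0.08, adjusted p = 0.0741). With the set block, 3 members were called higher (Ccna1, Pttg1 and Rad21) and 7 lower (Atm, Ywhag, Ywhah, Ywhaz, Ywhaq, Stag1 and Cul1), while 12.7% of all genes were called. Among the mitotic genes that fell with CSE, none passed here with group alone in the model, and their log2 fold changes ran from 0.02 to 0.83. Ccnb1 averaged 1.16 ± 0.584 CPM in CSE with naringenin and 1.14 ± 0.434 CPM in CSE, and Plk1 1.25 ± 0.622 CPM and 1.08 ± 0.542 CPM in that order. Bub1 averaged 1.76 ± 0.931 CPM in CSE with naringenin and 1.04 ± 0.367 CPM in CSE (log2 fold change 0.76 ± 0.53, adjusted p = 0.605), with 1.04, 0.52 and 0.15 within sets 1, 2 and 3. Bub1b averaged 1.16 ± 0.98 CPM in CSE with naringenin and 0.651 ± 0.471 CPM in CSE (0.83 ± 0.65, adjusted p = 0.653), with 1.06, 1.0 and -0.88 within the sets. The cyclin B2-like row AABR07000658 averaged 0.723 ± 0.432 CPM in CSE with naringenin and 0.331 ± 0.137 CPM in CSE (1.12 ± 0.59, adjusted p = 0.458). Both comparisons use the same CSE libraries, so a value high or low in them moves both.

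Against control, CSE with naringenin had 3 members higher (Orc2, Atr and Anapc1) and 6 lower (Ccna1, Ccnb1, Rad21, E2f2, Sfn and LOC298795). Over all genes tested 8.16% were called, 4.26% higher and 3.90% lower, and the members' share was 7.83%. All libraries of CSE with naringenin lay above all controls in 3 members (Orc2, Orc4 and Anapc1) and below them in 4 (Sfn, LOC298795, Rad21 and Ywhae), against 4.65% and 3.62% of all genes tested. Sfn had a log2 fold change of -1.25 ± 0.26 (adjusted p = 0.0084) and Rad21 one of -0.26 ± 0.05 (adjusted p = 0.0038); both held with each of the 15 libraries left out in turn. Ccna1 was lower by 0.94 on the log2 scale (log2 fold change -0.94 ± 0.24, adjusted p = 0.0284), a call lost in 6 of those 15 fits and with limma-voom (0.0542). Orc2 was higher by 0.24 ± 0.06 (adjusted p = 0.0185) and lost in 1. The remaining calls were less steady. E2f2 was lost in 13 of the 15 fits (adjusted p up to 0.104) and Ccnb1 in 11 (up to 0.102), and limma-voom called neither (0.0522 and 0.0702). Atr was lost in 9 of the fits, LOC298795 in 8 and Anapc1 in 6 (up to 0.0945, 0.0886 and 0.084). Plk1 missed the threshold at a log2 fold change of -1.45 ± 0.44 (adjusted p = 0.0539).

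**Figure D5:**
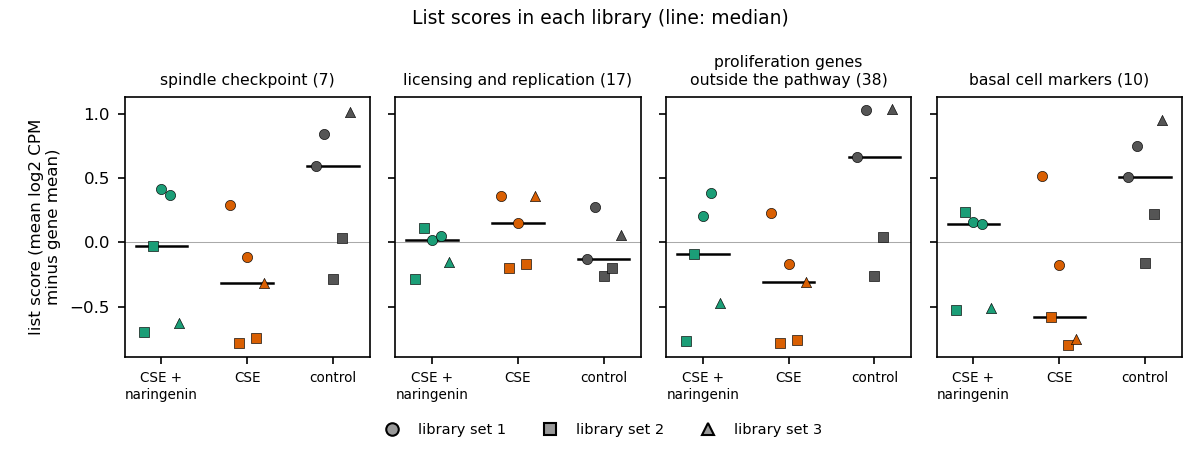
List score in each library (y axis: mean log2 CPM of the list minus each gene's mean over the 15 libraries) for 2 role lists, for proliferation genes outside the pathway and for basal cell markers; lines are medians, and symbols mark the 3 library sets. The spindle checkpoint score spans -0.698 to 0.417 in CSE with naringenin, -0.781 to 0.293 in CSE and -0.281 to 1.02 in control libraries; set 2 holds the 2 lowest CSE and the 2 lowest control libraries, while in CSE with naringenin its libraries are at -0.698 and -0.0304 and that of set 3 at -0.626.

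Proliferation genes that the pathway annotation leaves out were read as a further list in CSE against control. Of 38 genes, 13 fell, 1 rose and 24 did not pass, where 10.4% of all genes tested fell and 10.8% rose. The median log2 fold change of the 38 was -0.48. The number of the 38 that fell was 7 with limma-voom, 15 with DESeq2 and 18 with the set block. Prc1, a spindle midzone protein, had 7.61, 7.24, 6.94, 9.01 and 8.68 CPM in CSE, against 18.2, 19.2, 12.8, 11.6 and 20.0 CPM in control libraries, without overlap (log2 fold change -1.05 ± 0.18, adjusted p = 0.00118). Anln, the cytokinesis protein anillin, fell by 2.57 (log2 fold change -2.57 ± 0.50, adjusted p = 0.00254), and Foxm1, a transcription factor of G2/M genes, by 0.95 (SE 0.24, adjusted p = 0.0126). Mki67 and Top2a, the usual proliferation markers, had log2 fold changes of -2.29 ± 0.83 and -2.64 ± 0.94 and did not pass (adjusted p = 0.0635 and 0.0591). Mki67 ran from 0.517 to 9.25 CPM in CSE and from 4.17 to 31.2 CPM in control libraries. Prim1, a subunit of DNA primase, was the gene that rose (0.57 ± 0.10, adjusted p = 0.00153).

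Of 13 multiciliogenesis genes tested 5 fell, 1 rose and 7 did not pass, where 10.4% of all genes tested fell and 10.8% rose. Deup1, which organises the deuterosomes that build centrioles, fell by 0.52 on the log2 scale (SE 0.10, adjusted p = 0.00156), and the transcription factor genes Myb and Rfx3 fell by 1.21 and 0.32 (adjusted p = 0.00885 and 0.0155). Ccno, a cyclin-like gene needed for centriole amplification, rose by 0.47 ± 0.15 (adjusted p = 0.0327). It had 5.24 to 5.89 CPM in CSE and 3.43 to 4.73 CPM in control libraries, which do not overlap.

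Across the 15 libraries the genes most like the mean of 23 members of the cyclin, CDK1 activation and spindle checkpoint lists, outside the pathway, were Abo, Tmem176a, Wnt4, Upk3bl1 and Timeless. Their Pearson correlations were 0.915, 0.898, 0.885, 0.875 and 0.873 among 15745 genes compared. The libraries share treatment groups and library sets, so the values are a description.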

How the data were processed

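RNA of 15 libraries was measured. The authors deposited whole-number counts for each gene in each library, and these are the values tested. The FPKM values beside them were computed by the authors and serve only to compare levels between genes. The submitters' processing notes name, with no role or order, HISAT2 2.0.4, StringTie 1.3.4d, cutadapt 1.9 and UMI-tools, beside edgeR and DESeq2. The genome build, whether strand was used in counting and whether reads with 1 molecular identifier were merged are not given in the sources used here. Counts of near-identical copies (the Ywha genes, Skp1, Hdac1l, LOC100909750, LOC298795 and AABR07000658) are uncertain.

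Groups came from the sample titles. The test was edgeR's quasi-likelihood test (edgeR 4.0.16, R 4.3.3) after filterByExpr and TMM scaling, with all 15 libraries in 1 model of group alone; p-values were adjusted over 15860 genes and called under 0.05, and the method was also tested on simulated data. CPM values are TMM-scaled and computed here. Alternatives used DESeq2 1.42.0, limma 3.58.1 (voom, and FPKM with pseudocounts of 0.1 and 1), other filters and blocks, and left-out libraries. Library sets were found by average-linkage clustering of group-centred log2 CPM of genes outside the members. Replicate pairs differed by a median chi-square of 2.79 to 19.5 (30 pairs), against 0.455 from sampling alone, so none was counted as 1 library. No label ties libraries to animals or cultures, and p-values reflect no more than the spread among these libraries, which may be technical in part or whole. Floors cover counting error only. The precision behind a level follows from totals of 55.1 to 60.6 M counts.

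The members, the lists and the named genes were chosen with earlier results of these data known. Named are up to 12 called members in each direction of CSE against control and 8 of CSE with naringenin against CSE, by adjusted p, plus a list of key members, 3 genes of each further list and 5 genes most like the mitotic lists; other genes were named after their values were seen, to complete a list. The promoter sequences and coordinates are from RefSeq GRCr8 and were matched by symbol.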

Additional observations from a re-analysis of the deposited data

Results flagged for a closer look

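A gap test for a single far library (Dixon, critical value 0.71 for 5 libraries) was run on 177 combinations of a named gene and a group, and 12 were past it; chance alone gives about 1 in 20. Members made up 4 of the 12. Ccnh had 23.3 CPM in CSE replicate 5, against 15.2 to 17.3 CPM in the other CSE libraries. Ccna1 had 4.86 CPM in CSE replicate 2, against 3.95 to 4.07 CPM in the others. Ccne1 had 1.43 CPM in replicate 4 of CSE with naringenin (others 2.28 to 2.6 CPM) and 1.15 CPM in CSE replicate 3 (others 2.58 to 3.1 CPM).

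Of the further genes, Prim1 had 18.4 CPM in control replicate 3 (others 13.8 to 14.8 CPM), Deup1 44.8 CPM in replicate 2 of CSE with naringenin (others 53.5 to 56.9 CPM) and Myb 3.6 CPM in CSE replicate 5 (others 6.52 to 7.29 CPM). Control replicate 5 stood apart in 4 genes, with 76.5 CPM of Dnai1 (others 118 to 131 CPM), 1090 CPM of Scgb1a1 (others 433 to 571 CPM), 1070 CPM of Muc5b (others 107 to 338 CPM) and 9.46 CPM of Cd68 (others 1.42 to 1.66 CPM). Cd68 also stood out in replicate 5 of CSE with naringenin, at 6.73 CPM (others 2.41 to 3.42 CPM).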

How the results depend on the processing

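In CSE against control, 10 members were called higher and 13 lower. The counts were 16 higher on FPKM plus 0.1 and on FPKM plus 1, and with the library set as a block 22 higher and 23 lower, where 39.9% of all genes were called. Leaving out 1 library gave 7 to 13 higher and 11 to 16 lower. In CSE with naringenin against CSE, 1 higher and 0 lower became 2 and 3 with DESeq2 and 3 and 7 with the set block (12.7% of all genes). No member was called higher, 0, with limma-voom, on FPKM plus 1 and on FPKM plus 0.1 without a filter; leaving out 1 library gave 0 to 1 in each direction. In CSE with naringenin against control, 3 higher and 6 lower became 1 and 3 with only the 2 groups in the fit and 11 and 21 with the set block (26.4% of all genes). FPKM gave 6 higher in all 3 settings and, without a filter, 3 lower; no filter on low counts gave 3 lower and DESeq2 13 lower. Leaving out 1 library gave 0 to 4 higher, 0 without replicate 3 of CSE with naringenin, and 2 to 8 lower. Leaving out library set 3 from all groups, an alternative chosen after seeing the data, gave 9 and 11, 1 and 0, and 2 and 7 calls, higher and lower, in the 3 comparisons. Among the 34 named members, no value past the threshold changed sign in any of these settings. The cause of these differences was not tested.

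The labels do not pair libraries by replicate number, and correlations of same-numbered libraries ran from -0.391 to 0.387. Number 5, which makes up set 3, was its own best match in all 3 pairs of groups (0.301, 0.348 and 0.274), and no other number was in all 3. Numbers 2 and 3 were their own best match in CSE with naringenin against CSE (0.387 and 0.38). With the replicate block, 12 members were called higher and 12 lower in CSE against control, 1 and 0 in CSE with naringenin against CSE, and 2 and 5 in CSE with naringenin against control.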
